A study of Mus musculus with 71 samples.

Results

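RING1B ChIP-seq in CBX7-CaPS cells was compared between day 8 and day 6 of neural differentiation. The comparison rests on 4 libraries of the 71 samples in the series, 2 at day 8 and 2 at day 6, and covers all 15091 RING1B peaks of the deposited time course. The libraries were chosen by their labels: genotype, stage and antibody, and the number 3 or 5 that the labels give each group of libraries, called experiment 3 and experiment 5 here, which pairs a day-8 with a day-6 library. No measured value entered that choice.

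The cells are J1, a mouse embryonic stem cell (ESC) line. All 4 libraries carry the CBX7-CaPS genotype, a form of CBX7 altered, going by the series title, to bring into Polycomb repressive complex 1 (PRC1) a domain known from committed cells. Feeder cells were removed, and the ESC were kept as aggregates for 4 days without LIF, the cytokine that maintains ESC. Retinoic acid was then added to 5 uM, and neural progenitor cells (NPC) were taken at day 8 or at day 6. The same table holds CaPS ESC grown on feeders, and WT CBX7 cells at day 8, at day 6 and as ESC, with 2 libraries each, one of experiment 3 and one of experiment 5. The sources used here do not say whether libraries came from separate cultures or clones. The p-values rest on the spread between libraries, largely taken over peaks of like signal strength, and that spread may be technical.

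PRC1 is a repressor of developmental genes. RING1B, its catalytic subunit, places ubiquitin on histone H2A, and the CBX subunits bind H3K27me3, the methylation laid down by PRC2, at CpG-rich promoters. During neural differentiation Polycomb proteins leave genes of the neural lineage that become active and stay on, or spread over, genes of other lineages. A variant complex with PCGF6, MGA and E2F6 is known for holding germ cell genes silent in ESC.

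Promoters of 5 genes are shown because the RING1B peak over each is described here: Shisa3, Ddx4 and Esrrg, where day 8 was called lower; Trim71, where each day-8 value was above the day-6 value of its experiment without reaching a call; and Cbx7, whose promoter had close values at both days. The sequences are from RefSeq on GRCm38.p6, the assembly called mm10 in the files, and run from 250 bases before to 50 bases after the start, 5′ to 3′ along the gene. They lie at chr5:67607633-67607932 on the plus strand for Shisa3, chr13:112652261-112652560 on the minus strand for Ddx4, chr1:187608756-187609055 on the plus strand for Esrrg, chr9:114564320-114564619 on the minus strand for Trim71 and chr15:79932597-79932896 on the minus strand for Cbx7. Each window lies wholly inside its peak. Capitals mark CG dinucleotides.
Shisa3: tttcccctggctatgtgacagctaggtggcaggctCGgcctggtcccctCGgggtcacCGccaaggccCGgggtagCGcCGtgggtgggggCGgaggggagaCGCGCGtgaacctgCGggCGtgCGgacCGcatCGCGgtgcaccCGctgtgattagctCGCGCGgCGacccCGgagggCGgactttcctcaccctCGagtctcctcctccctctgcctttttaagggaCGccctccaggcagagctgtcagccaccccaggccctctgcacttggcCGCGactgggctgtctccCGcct
Ddx4: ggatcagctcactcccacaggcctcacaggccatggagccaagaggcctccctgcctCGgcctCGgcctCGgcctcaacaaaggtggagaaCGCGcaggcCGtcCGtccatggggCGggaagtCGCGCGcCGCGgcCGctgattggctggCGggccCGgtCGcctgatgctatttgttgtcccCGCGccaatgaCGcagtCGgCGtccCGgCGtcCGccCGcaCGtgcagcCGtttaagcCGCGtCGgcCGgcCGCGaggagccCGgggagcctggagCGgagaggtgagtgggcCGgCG
Esrrg: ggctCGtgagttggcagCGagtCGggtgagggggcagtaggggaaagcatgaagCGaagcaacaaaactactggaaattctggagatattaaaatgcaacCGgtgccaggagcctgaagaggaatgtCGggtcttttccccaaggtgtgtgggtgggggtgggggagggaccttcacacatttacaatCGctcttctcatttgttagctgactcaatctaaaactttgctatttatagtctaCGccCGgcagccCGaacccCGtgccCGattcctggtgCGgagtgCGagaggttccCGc
Trim71: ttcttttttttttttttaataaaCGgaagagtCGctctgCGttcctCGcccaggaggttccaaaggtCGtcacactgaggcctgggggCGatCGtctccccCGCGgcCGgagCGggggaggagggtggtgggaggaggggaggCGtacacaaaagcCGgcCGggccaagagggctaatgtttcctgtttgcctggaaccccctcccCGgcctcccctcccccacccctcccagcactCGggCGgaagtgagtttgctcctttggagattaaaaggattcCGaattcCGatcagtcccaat
Cbx7: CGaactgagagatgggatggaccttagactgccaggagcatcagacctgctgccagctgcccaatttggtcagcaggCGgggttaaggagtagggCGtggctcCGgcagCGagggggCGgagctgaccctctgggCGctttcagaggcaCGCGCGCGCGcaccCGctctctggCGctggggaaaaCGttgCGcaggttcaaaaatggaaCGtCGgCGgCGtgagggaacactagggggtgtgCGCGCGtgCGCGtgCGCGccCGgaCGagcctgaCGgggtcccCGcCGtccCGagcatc
The windows held 28 CG in Shisa3, 38 in Ddx4, 15 in Esrrg, 19 in Trim71 and 33 in Cbx7, against a median of 7 over 32851 RefSeq promoters of the same length. Of all promoters, 4.95% held at least as many CG as Ddx4 and 34.6% at least as many as Esrrg. The Ddx4 window also held CACGTG, the E-box that MGA binds with its partner MAX, and GCGGGAA, an E2F-type motif, both searched on both strands. The Esrrg window held GCGGGAA too, as its reverse complement near the end, but not CACGTG. The windows of Shisa3, Trim71 and Cbx7 held neither. The CG marks in Ddx4 overlap both motifs. CACGTG occurred in 7.15% and GCGGGAA in 4.6% of all promoters.

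The libraries differed in depth. Header totals were 25.34 M tags (experiment 3) and 5.11 M (experiment 5) at day 8, against 11.3 M and 2.42 M at day 6. A value is the number of tags in a peak scaled to 10 M tags in the library, and 3 tags, the most that a listed 0 allows, are worth 1.18 and 5.87 tags per 10 M at day 8, against 2.65 and 12.4 at day 6. Of the 15091 peaks, 14 and 1178 were listed at 0 at day 8, against 193 and 2316 at day 6. The share of tags inside peaks was 4.96% and 8.51% at day 8, against 5.61% and 12.1% at day 6. Each CaPS pair also joins a library whose tag directory is marked timenorm to one marked rmdup, per the file headers. The order is opposite in the 2 experiments. In WT cells both day-6 libraries are marked timenorm and both day-8 libraries rmdup, so day and mark cannot be told apart there. Values of a group are given below in the order experiment 3, experiment 5. The part of depth, tag share and tag directory in the results was not tested beyond the scalings given.

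Per 10 M tags, RING1B over most peaks was lower at day 8 than at day 6. The median log2 ratio of day 8 over day 6 was -0.40 over all peaks, with -0.25 in experiment 3 and -0.55 in experiment 5. Over the 4498 peaks with a mean of at least 20 tags per 10 M across the 12 libraries, called strong peaks here, it was -0.55 (0.685-fold), with -0.32 and -0.75 in the pairs. Both pairs were lower at 50.2% of all peaks and higher at 14.6%. Set against the median of strong peaks in its own experiment, 23.9% of all peaks lay below and 36.8% above in both pairs. The sign of this general shift depends on the scaling. It was -0.10 when all libraries were brought to an equal sum of signal in peaks, called the same sum here, 0.04 with DESeq2's size factors, and 0.57 for tags without scaling, since the day-8 totals were 2.24 and 2.11 times those at day 6. In a bulk ChIP a change in the share of cells bound and a change per cell cannot be told apart. The text sets single peaks and gene lists beside these medians. WT cells, per 10 M, had a median of -0.22 between the same days, with -0.36 in experiment 3 and -0.04 in experiment 5.

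Single peaks were tested with limma on log2(tags per 10 M + 1) over all 12 libraries with experiment as a block, and p-values were adjusted by Benjamini-Hochberg over all 15091 peaks. At an adjusted p under 0.05, 17 peaks (0.113% of all) were lower and 3 (0.0199%) were higher at day 8, against 2069 at an unadjusted p under 0.05. All 20 had the same direction in both pairs, and 15 lay within 10 kb of a start. The calls depended on single libraries. Without the experiment 5 library of day 6 no peak was called, and without the experiment 5 library of day 8 there were 0 higher and 2 lower. Without the experiment 3 library of day 8 there were 1 higher and 21 lower, and without that of day 6 there were 30 higher and 414 lower. The prior degrees of freedom were infinite, so the p-value reflects the spread usual at that signal strength, not that of the peak's own libraries.

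**Figure D1:**
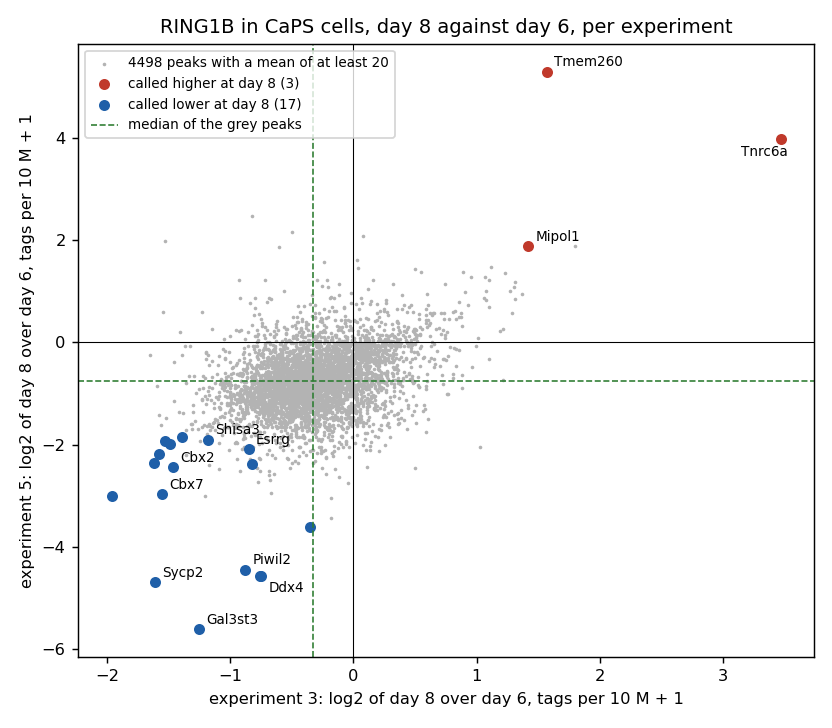
Log2 ratio of day 8 over day 6 in CaPS cells, on tags per 10 M + 1, in experiment 3 (horizontal axis) and experiment 5 (vertical axis). Grey points are 4498 strong peaks, blue points the 17 peaks called lower and red points the 3 called higher at day 8; dashed lines mark the medians of the grey points, -0.32 and -0.75. All called points lie on the same side of 0 in both experiments.

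The widest peak called lower was at Wt1, the gene of a zinc finger factor of kidney and gonad development. The Wt1 peak, 15374 bases wide and centred 2149 bases inside the gene (chromosome 2, 105120992 to 105136365), had 210 and 386 tags per 10 M at day 8, against 593 and 1536 at day 6. Both day-8 libraries were below both day-6 libraries. The log2 ratio was -1.74 ± 0.42 (SE) with a limma adjusted p of 0.0352, and at the same sum -1.40 with a limma adjusted p of 8.4e-08. In CaPS ESC the peak had 1541 and 1484 tags per 10 M, so the value at day 8 was the lowest of the 3 stages in both experiments.

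Shisa3 codes for a membrane protein known to restrain Wnt and FGF signalling. Its promoter peak (chromosome 5, 67604777 to 67610053), which spans the sequence above, had 116 and 200 tags per 10 M at day 8, against 265 and 749 at day 6. The groups did not overlap, and the log2 ratio was -1.54 ± 0.36 (limma adjusted p = 0.0267). Esrrg, an orphan nuclear receptor gene, had 88.4 and 110 tags per 10 M at day 8, against 161 and 471 at day 6 over a peak of 8956 bases that spans its start (chromosome 1, 187602288 to 187611243). Again no day-8 value reached a day-6 value, with a log2 ratio of -1.47 ± 0.36 (limma adjusted p = 0.0406). Foxh1 codes for the DNA-binding partner of SMAD proteins in Nodal signalling. It had 25.6 and 32.3 tags per 10 M at day 8, against 76.1 and 126 at day 6, a log2 ratio of -1.73 ± 0.41 (limma adjusted p = 0.0274). In CaPS ESC Foxh1 had 36.5 and 39.3 tags per 10 M, so day 6 held the highest value of the 3 stages in both experiments. Wt1, Shisa3 and Esrrg stayed called at the same sum; Foxh1 did not, at a limma adjusted p of 0.0682. Over all 15 alternatives each of these 4 peaks kept its call in 7 and lost it in 8.

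Further peaks called lower lay in gene bodies or between genes. Zfp46, a zinc finger gene, had 17.2 and 13.7 tags per 10 M over exon 3 at day 8, against 54.9 and 74.3 at day 6 (log2 ratio -1.99 ± 0.39, limma adjusted p = 9.44e-04). Gal3st3 codes for a galactose sulfotransferase. It had 9.08 and 0 tags per 10 M over its last exon at day 8, against 23 and 47.5 at day 6 (log2 ratio -3.43 ± 0.49, limma adjusted p = 2.88e-08). Its listed 0 allows up to 5.87 tags per 10 M. The day-8 libraries were lower than both day-6 libraries at both genes, and both calls held at the same sum. Ppp1r13b, 6430628N08Rik, Llgl2, Zfp784, Zfpm1 and Tmem98 completed this set, with log2 ratios between -2.66 and -1.60. The peaks assigned to Llgl2 and Zfpm1 were intergenic, at 34779 and -13101 bases from the start. The Tmem98 peak lay 366 bases from its start. Of these 6 only Llgl2, which codes for a cell polarity protein, stayed called at the same sum. Of the 20 called peaks, 9 averaged under 20 tags per 10 M over the 4 libraries, where few tags stand behind each value.

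**Figure D2:**
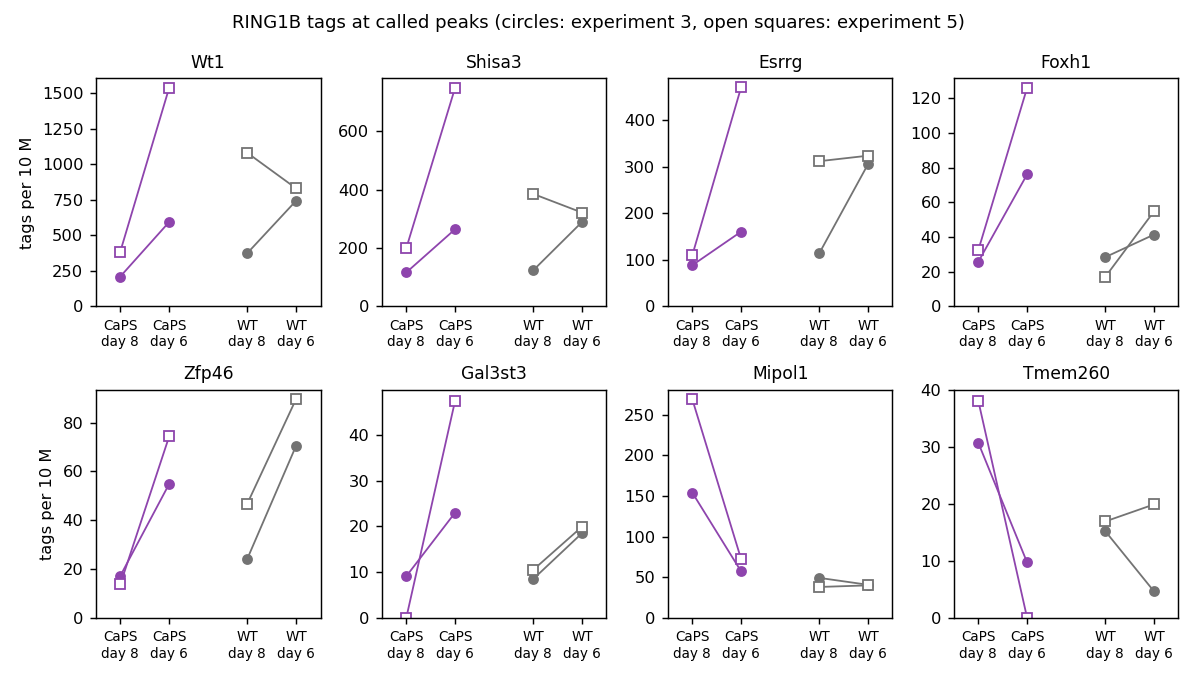
RING1B tags per 10 M (vertical axes, from 0) at 8 called peaks in CaPS day 8, CaPS day 6, WT day 8 and WT day 6, with experiment 3 as filled circles and experiment 5 as open squares, joined within an experiment. In CaPS cells day 8 lies below day 6 in both experiments at Wt1, Shisa3, Esrrg, Foxh1, Zfp46 and Gal3st3, and above it at Mipol1 and Tmem260.

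Germ cell gene promoters were among the weak peaks called lower. Of 12 measured genes of the germ cell list, 2 were called lower and 0 higher, where 0.178% of 7875 measured genes were called lower. Piwil2, a PIWI protein of the piRNA pathway, had 6.51 and 0 tags per 10 M at day 8, against 12.8 and 20.7 at day 6 (log2 ratio -2.66 ± 0.54, limma adjusted p = 0.00213). Ddx4, the germ cell RNA helicase whose promoter is printed above, had 4.34 and 0 at day 8, against 7.96 and 22.7 at day 6 (log2 ratio -2.66 ± 0.64, limma adjusted p = 0.0352). Sycp2, a synaptonemal complex gene outside the list, had 2.37 and 0 at day 8, against 9.29 and 24.8 at day 6 (log2 ratio -3.15 ± 0.70, limma adjusted p = 0.0131). In each the day-8 library of experiment 5 was listed at 0, which allows up to 5.87 tags per 10 M. At the same sum the limma adjusted p was 0.0389 for Piwil2, 0.0353 for Sycp2 and 0.123 for Ddx4.

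The germ cell list was not uniform. Its median log2 ratio was -0.92, against -0.50 for all measured genes, and its members ran from -2.66 to 0.39. The lower median was that of experiment 5, at -1.12 against -0.70 for all measured genes; in experiment 3 it was -0.13 against -0.30. Of the 12 members 50.0% were lower in both pairs, against 61.1% of all measured genes. Dazl, an RNA-binding protein of germ cells, had 6.31 and 7.83 tags per 10 M at day 8, against 12.4 and 22.7 at day 6, and its log2 ratio of -1.15 ± 0.60 did not pass the test. Sycp3, a further synaptonemal complex gene, had 6.51 and 3.92 at day 8, against 4.87 and 6.19 at day 6, so its groups overlapped. Dmrt1, a sex-determination factor, had 375 and 719 at day 8, against 294 and 535 at day 6. Of 9 measured members with a RefSeq promoter, 6 held CACGTG in a promoter window, Ddx4 and Sycp3 among them. In CaPS ESC the promoter of Piwil2 had 49.5 and 70.3 tags per 10 M and that of Ddx4 30.1 and 35.1, above both later stages in both experiments.

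The 3 peaks called higher lay away from promoters, where 36.9% of all peaks lay within 1 kb of a start. Mipol1, which codes for a coiled-coil protein, had 154 and 269 tags per 10 M at day 8, against 57.1 and 72.3 at day 6, over 7686 bases of its first intron, 51353 bases from the start (chromosome 12, 57277936 to 57285621). Both day-8 libraries were above both day-6 libraries, with a log2 ratio of 1.65 ± 0.38 (limma adjusted p = 0.0198). Mipol1 was at 44.8 and 47.5 in CaPS ESC, and WT cells had 49.1 and 37.9 tags per 10 M at day 8, against 40.6 and 39.9 at day 6. Tmem260 had 30.8 and 38.2 tags per 10 M in an intron at day 8, against 9.73 and 0 at day 6 (log2 ratio 3.43 ± 0.71, limma adjusted p = 0.00301). Its listed 0 allows up to 12.4 tags per 10 M. A peak of 499 bases at -26247 bases from the start of Tnrc6a, which codes for a protein of microRNA silencing, had 10.1 and 14.7 at day 8 and was listed at 0 in both day-6 libraries (limma adjusted p = 0.0429). With 3 tags over both day-6 libraries as the floor, it was at least 4.96-fold higher at day 8. All 3 stayed called higher at the same sum. None overlapped a day-8 H3K27me3 peak, where 28.5% of all peaks did.

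Of the peaks within 10 kb of a start that averaged at least 20 tags per 10 M over the 4 libraries, none was called higher. The 10 with the smallest p were Ap1s2, Mecom, Kis2, Trim71, Tbc1d9, LOC106557447, Lin28b, Rragd, Sall1 and Rictor, with log2 ratios between 0.90 and 1.84 and limma adjusted p between 0.059 and 0.314. Sall1, a zinc finger factor of kidney and neural progenitors, had 1262 and 2547 tags per 10 M at day 8, against 599 and 1441 at day 6. Each day-8 value was above that of its pair, and the groups overlapped across experiments. Mecom, a zinc finger factor of blood stem cells, had 263 and 534 at day 8, against 106 and 250 at day 6, so that the groups did not overlap. Trim71 and Lin28b code for RNA-binding regulators of the let-7 pathway of developmental timing. Trim71 had 133 and 265 at day 8, against 62.8 and 132 at day 6, and Lin28b had 90.2 and 128, against 47.8 and 64.0. At the same sum 8 of the 10 were called higher, with log2 ratios between 1.24 and 2.18, and Tbc1d9 and Rictor were not. That scaling called 0.239% of all peaks and 0.756% of strong peaks higher. The 10 were picked by their p in the same libraries, so these calls add no separate support.

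Scaled to the same sum, the calls lay mostly in broad RING1B domains. Limma then called 36 peaks higher and 36 lower (0.239% of peaks each), and 11 of the 20 calls per 10 M were among them. Per 10 M, all 36 of each set also had their direction in both pairs. The median width was 8726 bases for the higher and 11861 bases for the lower set, and 29 and 32 of the 36 overlapped a day-8 H3K27me3 peak, as did 28.5% of all peaks and 3081 of the 4498 strong peaks. The 4498 strong peaks are mostly narrower: 3450 of them span 1 to 5 kb. Without single libraries, alternatives added after seeing the data, the calls ranged from 1 to 20 higher and from 4 to 42 lower, with the fewest when the experiment 5 library of day 8 was left out.

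The lower domains at that scaling included, besides Wt1, Shisa3 and Esrrg, those of 4 developmental regulators chosen here after their values were seen. Gata4, a heart and endoderm factor, had 239 and 339 at day 8, against 467 and 1078 at day 6, and Tbx1, a pharyngeal factor, had 347 and 531, against 642 and 1390. Lhx1, a LIM homeobox factor of kidney and spinal interneurons, had 281 and 480 at day 8, against 594 and 1183 at day 6. The Gsx1 peak, of a ventral forebrain factor, had 133 and 237 at day 8, against 329 and 611 at day 6. At the same sum the log2 ratio was -0.97 for Gata4 and -0.99 for Gsx1, with limma adjusted p of 4.74e-04 and 3.36e-04; per 10 M it was -1.31 ± 0.45 and -1.33 ± 0.39 and missed the call, with limma adjusted p of 0.222 for Gata4 and 0.16 for Gsx1. In each of these genes the day-8 library was below its pair in both experiments. Their CaPS ESC values were higher still, with 2154 and 1976 tags per 10 M at Gata4, 2360 and 2354 at Tbx1, 3046 and 3137 at Lhx1 and 1341 and 1490 at Gsx1. In WT cells Gata4 had 747 and 2564 at day 8, against 1915 and 1696 at day 6, so its 2 experiments ran in opposite directions there. Lhx1, with 543 and 1562 at WT day 8, against 1625 and 1517 at WT day 6, did the same, as did Gsx1, with 251 and 575 at WT day 8, against 565 and 508 at WT day 6. Tbx1 was lower in both WT pairs, with 403 and 863 at WT day 8, against 808 and 922 at WT day 6. The difference between the courses did not pass the test at any of these genes.

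The higher domains at that scaling included Sall1, Mecom and Foxa1, an endoderm pioneer factor, which had 2264 and 4366 tags per 10 M at day 8, against 1542 and 3659 at day 6. The Foxa1 log2 ratio was 0.40 ± 0.53 per 10 M (limma adjusted p = 0.738) and 0.74 at the same sum (limma adjusted p = 0.00124). Among genes picked after their values were seen, Mab21l1, of eye and lens development, had 978 and 1854 at day 8, against 511 and 1111 at day 6. Tbr1, a factor of cortical neurons, had 1261 and 2356 at day 8, against 931 and 1974 at day 6. Each day-8 value of Foxa1, Mab21l1 and Tbr1 was above that of its pair.

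Across the 3 stages the medians of the 2 sets ran in opposite orders in CaPS cells. Of the 36 lower peaks, 26 (72.2%) had ESC above day 6 and day 6 above day 8 in both experiments. Among the 3377 strong peaks lower at day 8 in both pairs, 1496 did. Of the 36 higher peaks, 19 (52.8%) had ESC below day 6 and day 6 below day 8 in both. Among the 202 strong peaks higher at day 8 in both pairs, 77 did. The step between day 6 and day 8 is part of how these peaks were chosen, so only the ESC values add to it, and the shares are a description. The median over the lower set was 873, 288 and 132 tags per 10 M in ESC, at day 6 and at day 8 of experiment 3, and 896, 607 and 222 in experiment 5. Over the higher set it was 158, 329 and 556 in experiment 3, and 192, 723 and 1074 in experiment 5.

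**Figure D3:**
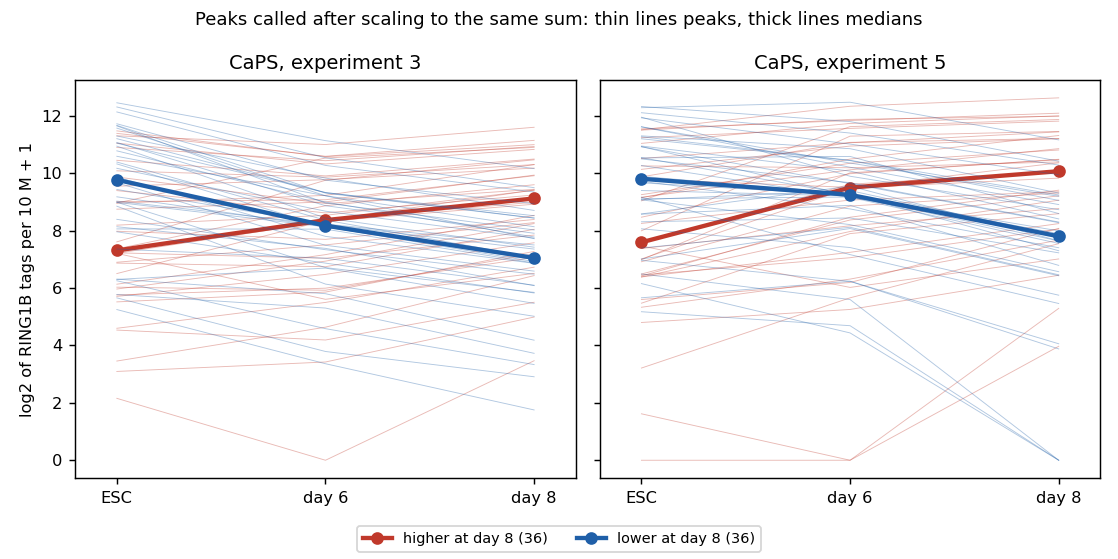
Log2 of RING1B tags per 10 M + 1 in CaPS ESC, day 6 and day 8, in experiment 3 (left) and experiment 5 (right), for the 36 peaks called higher (red) and the 36 called lower (blue) at day 8 against day 6 at the same sum. Thin lines are peaks and thick lines join medians; the blue median ends at 132 and 222 tags per 10 M, the red one at 556 and 1074.

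Gene lists mostly lay near the general shift. A gene counted as measured where a peak assigned to it lay within 10 kb of its start, and over 7875 measured genes the median log2 ratio was -0.50, 0.178% were called lower and 0.0127% higher. Of these genes 61.1% were lower and 8.7% higher in both pairs, 26.7% lay below and 31.7% above the median of strong peaks in both, and at the same sum 0.406% were called lower and 0.317% higher. All list medians were below 0 per 10 M and above 0 for unscaled tags, so only their places beside this median are given. Of 19 lists, 16 had no called member per 10 M. At the same sum 7 lists had called members: 2 higher and 3 lower among 35 regulators of neuronal differentiation, 0 higher and 4 lower among 29 mesoderm regulators, 1 higher and 1 lower among 14 endoderm regulators, 1 higher among 14 neural crest regulators, and 1 lower each among neural progenitor regulators, germ cell genes and ion channel genes. Of all peaks over 10 kb, 6.93% were called lower and 4.95% higher at the same sum. The shares were 8.57% and 5.71% for neuronal differentiation, and 13.8% and 0% for mesoderm regulators, with median widths of 16630 and 16040 bases. Regulators of neuronal differentiation (35 measured) had a median of -0.27, with 25 (71.4%) above the median of strong peaks in both pairs, against 31.7% of all measured genes. Their peaks were broad, with a median width of 16630 bases against 1046 for all measured genes, and 55.1% of all peaks over 10 kb lay above that median in both pairs, as did 52.8% of the neural progenitor list. Isl1, a motor neuron factor, had 2433 and 4805 tags per 10 M at day 8, against 1931 and 5335 at day 6, and Barhl2, an interneuron factor, had 1426 and 2710, against 1462 and 3469. Neither passed the test, and the groups overlapped at both.

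Regulators of neural progenitors (36 measured) had a median of -0.45. Pax6 had 1562 and 2866 tags per 10 M at day 8, against 1808 and 4755 at day 6, and Sox1, the earliest marker of neural tissue, had 1905 and 3542, against 2174 and 4701. Both were lower at day 8 in each pair, with fitted log2 ratios of -0.47 ± 0.52 for Pax6 and -0.30 ± 0.56 for Sox1. Zic2, the strongest of the list, had 4663 and 9426 at day 8, against 3896 and 9945 at day 6, and Otx2, of fore- and midbrain, had 3443 and 7345, against 3470 and 8694. RNA was not among these data, so the labelled cell type could not be checked by expression. Among pluripotency regulators (14 measured, median -0.41), Sox2 had 3109 and 6178 at day 8, against 2558 and 6087 at day 6. Pou5f1, the gene of OCT4, had 2.57 and 1.96 tags per 10 M at day 8, against 9.29 and 16.5 at day 6, and did not pass the test (log2 ratio -2.05 ± 0.89, limma adjusted p = 0.295).

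The largest RING1B domains stayed near the general shift. The peak assigned to Hoxa3, which covers 128097 bases of the HoxA cluster, had 5449 and 10096 tags per 10 M at day 8, against 6322 and 14727 at day 6 (log2 ratio -0.38 ± 0.84). The HoxD peak assigned to Hoxd11, of 66944 bases, had 5573 and 10973 at day 8, against 5947 and 14981 at day 6 (log2 ratio -0.27 ± 0.78). Both ratios were smaller than their SE, and that of Hoxd11 was 0.07 at the same sum. Since 1 peak spans several Hox genes, 5 of 39 listed Hox genes counted as measured. Cdkn2a, the tumour suppressor locus under Polycomb control, had 2178 and 4361 at day 8, against 2174 and 5573 at day 6, and Cdkn2c, a related cell cycle inhibitor, had 2198 and 4354, against 1881 and 4555.

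Mesoderm regulators (29 measured) had a median of -0.57 with Wt1 as the only call. Their strong members Tbx18 (2494 and 5030 tags per 10 M at day 8, against 2337 and 5769 at day 6) and Pax9 (1808 and 3477, against 1808 and 4402) lay above the median of strong peaks in both pairs. Wnt pathway genes (41 measured) had a median of -0.62, and genes of Hedgehog, BMP, TGF-beta and FGF signalling (34 measured) one of -0.66. Wnt1, a dorsal midbrain ligand, had 257 and 325 at day 8, against 379 and 729 at day 6, while Wnt5a, a non-canonical ligand, had 372 and 699, against 349 and 679. Fgf9 had 233 and 436 at day 8, against 409 and 948 at day 6. None of these passed the test.

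Genes of the retinoic acid pathway (13 measured) had a median of -0.66 and no call. Cyp26a1 and Cyp26b1, which code for the enzymes that degrade retinoic acid, had 174 and 217, and 252 and 412, tags per 10 M at day 8, against 290 and 473, and 385 and 762, at day 6. Both were lower in each pair, with log2 ratios of -0.93 ± 0.37 and -0.75 ± 0.40. Aldh1a2, which codes for the enzyme that makes retinoic acid, had 889 and 1572 at day 8, against 740 and 1491 at day 6, a log2 ratio of 0.17 ± 0.40. Neuron markers (13 measured) had a median of -0.69, with no call. Of the 13, 12 were lower in both pairs. This held for 61.1% of all measured genes and 76.6% of those with a mean of at least 20 tags per 10 M. Tubb3, neuronal tubulin, had 18.9 and 11.8 tags per 10 M at day 8, against 28.3 and 37.2 at day 6, and Nefl, a neurofilament gene, had 90.6 and 133, against 161 and 330. Markers of feeder fibroblasts (10 measured) had a median of -0.21, neural crest regulators (14) of -0.21, endoderm regulators (14) of -0.38, cyclin-dependent kinase inhibitors (5) of -0.33, glial markers (6) of -0.49, ion channel genes (37) of -0.55 and housekeeping genes (8) of -0.58, with no call in any of them.

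**Figure D4:**
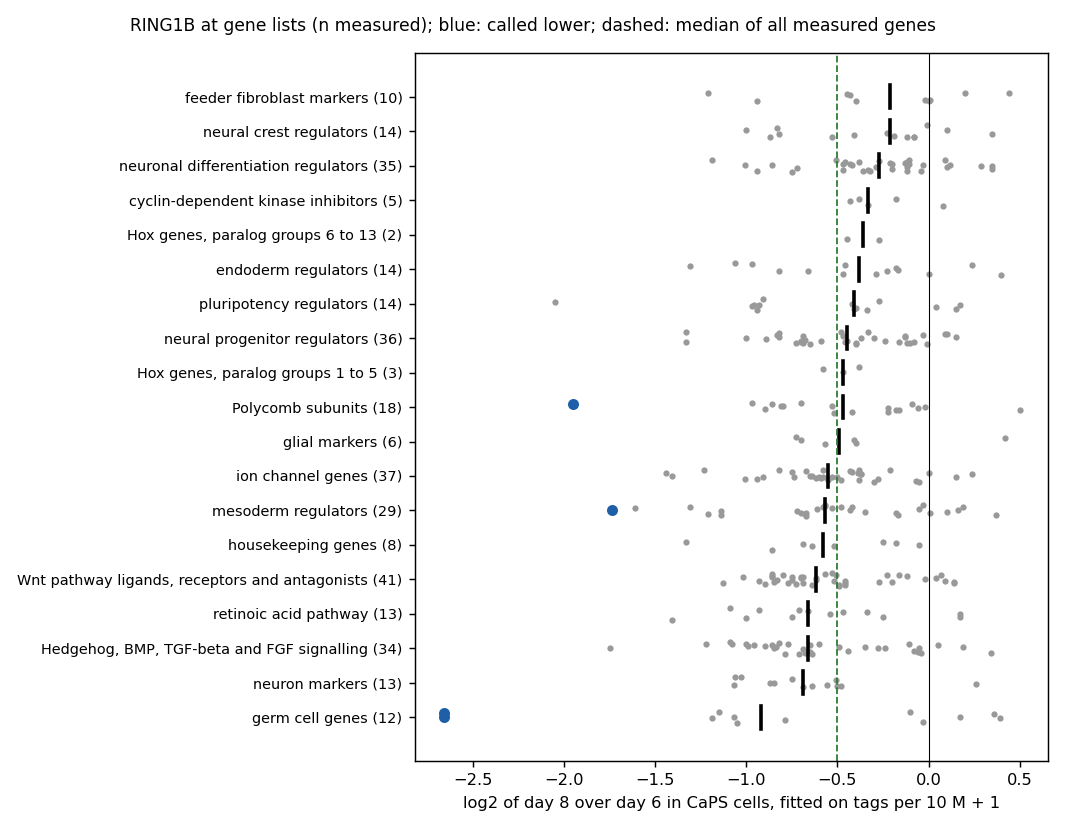
Fitted log2 ratio of day 8 over day 6 in CaPS cells (horizontal axis, tags per 10 M + 1) for the measured genes of 19 lists (rows, number measured in brackets). Black bars are list medians, between -0.92 and -0.21, the dashed line is the median of all measured genes at -0.50, and blue points are called lower: Cbx2, Wt1, Piwil2 and Ddx4.

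Among genes of Polycomb subunits (18 measured, median -0.47) the single call was a peak in the last exon of Cbx2 (chromosome 11, 119027600 to 119028752). It had 12.2 and 156 tags per 10 M at day 8, against 35.4 and 847 at day 6 (log2 ratio -1.95 ± 0.37, limma adjusted p = 4.89e-04). A peak in intron 4 of Cbx7 (chromosome 15, 79920128 to 79922557), the gene altered in these cells, had 22.3 and 111 at day 8, against 67.2 and 873 at day 6 (log2 ratio -2.26 ± 0.35, limma adjusted p = 1.29e-06). At both peaks day 8 of experiment 5 lay above day 6 of experiment 3, so the groups overlapped although each pair was lower at day 8. WT libraries varied as widely: the Cbx7 peak had 1748 and 99.2 at WT day 8, against 49.0 and 209 at WT day 6, and the Cbx2 peak had 413 and 48.4, against 22.9 and 79.7. At the same sum neither was called, with limma adjusted p of 0.156 for Cbx7 and 0.26 for Cbx2. In WT ESC the Cbx7 peak had 128 and 979 and the Cbx2 peak 42.7 and 330, so experiment 5 was the higher there too. The sequence of the CBX7 construct was not used here, and whether its DNA adds tags to these gene body intervals was not tested, so their values may not measure RING1B binding alone.

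The promoter peaks of the same genes varied less between experiments. The Cbx7 promoter, printed above, had 50.3 and 95.9 tags per 10 M at day 8, against 55.3 and 95.0 at day 6, a log2 ratio of -0.06 ± 0.40. Cbx2 had 33.9 and 56.8 over its promoter at day 8, against 43.4 and 78.5 at day 6, a log2 ratio of -0.40 ± 0.37. Cbx8, next to Cbx2 and under a broad peak, had 520 and 907 at day 8, against 863 and 1895 at day 6. Bmi1, a PCGF subunit gene, had 3907 and 7458 at day 8, against 3462 and 8682 at day 6. None of these passed the test.

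**Figure D5:**
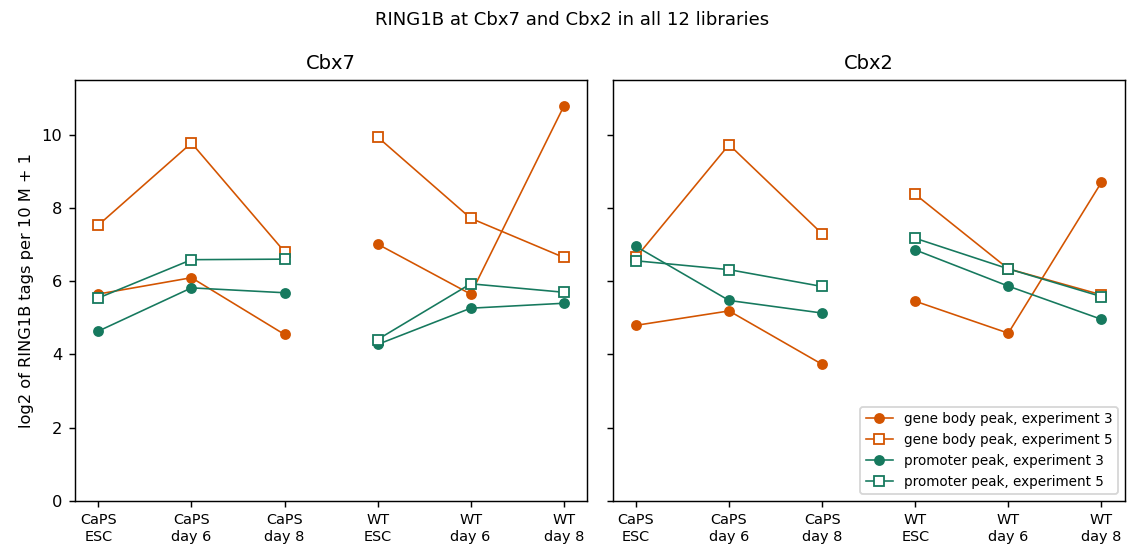
Log2 of RING1B tags per 10 M + 1 at the gene body peak (orange) and the promoter peak (green) of Cbx7 (left) and Cbx2 (right) in all 12 libraries, CaPS before WT, with experiment 3 as filled circles and experiment 5 as open squares. The gene body peaks reach 1748 and 413 tags per 10 M in the WT day-8 library of experiment 3 873 and 847 in the CaPS day-6 library of experiment 5, and 979 and 330 in the WT ESC library of experiment 5, while the promoter peaks stay within 143 tags per 10 M.

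Whether the course from day 6 to day 8 differed by genotype was tested as the CaPS ratio minus the WT ratio. Limma called 0 peaks higher and 3 lower (0.0199%), against 1186 at an unadjusted p under 0.05, and the median of this difference over all peaks was -0.17. The 3 were the gene body peaks of Cbx7 and Cbx2 and a peak in the first intron of Maged1. Of the measured genes, those with a peak within 10 kb, this was 0.0254%. None of the other 18 peaks called within CaPS cells passed this test of the difference. Without the CaPS day-6 library of experiment 5 it called 0 peaks, and without that of experiment 3 it called 5 higher and 8 lower. No WT library was left out in turn. Within WT cells the step between the days gave 14 peaks called higher (0.0928%) and 36 lower (0.239%). That WT step goes with the mark of the tag directory, timenorm or rmdup, and the test of the difference draws on it. For Wt1 the difference was -1.44 ± 0.59, with WT cells at 374 and 1079 tags per 10 M at day 8, against 743 and 830 at day 6. For Mipol1 it was 1.55 ± 0.54, and for Shisa3 -1.06 ± 0.51. Of the 17 peaks called lower in CaPS cells, 10 were also lower in both WT pairs, and none of the 3 called higher was higher in both. The share of all peaks with these WT directions was not determined, so no shared course is read from these counts. Strong peaks had a WT median of -0.39, with -0.52 in experiment 3 and -0.24 in experiment 5.

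By position, width and H3K27me3 the medians of the shift lay close together. Among strong peaks the median log2 ratio was -0.57 within 1 kb of a start (2646 peaks) and -0.49 beyond 10 kb (678 peaks). It was -0.55 at peaks that overlapped a day-8 H3K27me3 peak (3081) and -0.54 at the others (1417). By width it was -0.55 at 1 to 5 kb, -0.54 at 5 to 10 kb and -0.42 over 10 kb (303 peaks), and at the widest 55.1% lay above the median of strong peaks in both pairs, against 30.8% of all strong peaks. The medians of single chromosomes ran from -0.65 to -0.48. The ratios of the 2 experiments had a Pearson correlation of 0.35 across the 4498 strong peaks, which are not independent and share the peak set.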

How the data were processed

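RING1B ChIP-seq was analysed in the 12 libraries of the time-course table, 4 of them CaPS cells at days 8 and 6. The authors deposited a signal per peak, tags in the interval scaled to 10 M tags per library, per the file headers. HOMER 4.10.4, Bowtie2 2.3.4.3, cutadapt 1.14 and SAMtools 1.9 are listed, with the builds dm6 and mm10, per the submitters' processing notes. A spike-in of fly chromatin went into each ChIP, per the labels' protocols, and whether the totals hold a correction for it is not stated. Of the 12 tag directories 8 are marked timenorm and 4 rmdup, per the file headers. Values times totals gave whole read ends of 0.5 tag for 100% of values, within 0.1 read end, so counts were recovered as an alternative.

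Tests used limma 3.58.1 in R 4.3.3 with a mean-dependent prior on log2(signal + 1) over the 12 libraries, with experiment as a block, since the series design compares libraries made at the same time. A fold change on this scale understates that of low peaks with tags at both days. At a listed 0 it can exceed what the floor secures. For Tnrc6a the fitted fold was 13.2, against at least 4.96 by the floor. Deviations of CaPS day-8 and day-6 libraries with the same number had a correlation of 0.22, within a range of 0.06 to 0.22 over all pairs of groups. With 2 experiments, the pairing rests on the series design. The steps were tested on simulated data. On the recovered counts, edgeR 4.0.16 called 27 peaks higher and 6 lower with TMM and 3 higher and 8 lower with the header totals, and DESeq2 1.42.0 called 56 higher and 11 lower.

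Per direction, the genes named were the 10 called peaks with the largest change and the 5 with the most signal, within 10 kb of a start and averaging at least 20 tags per 10 M over the 4 libraries, filled up by smallest p where fewer were called, plus the 3 strongest members of each list. Some genes that this rule names are not reported here. The remaining called peaks and other genes were named after their values were seen. Members and lists were chosen with earlier results of these data known. A gene was represented by its strongest peak within 10 kb. Floors cover counting error only.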

Additional observations from a re-analysis of the deposited data

Results flagged for a closer look

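At 3 peaks the course from day 6 to day 8 was called different between CaPS and WT cells. The call is by limma's test of the difference itself, adjusted over all 15091 peaks. Since the prior degrees of freedom were infinite, its SE and p reflect the spread usual at that signal strength. They do not reflect the spread of the peak's own libraries. The Cbx7 intron peak had a difference of -4.29 ± 0.50 (log2, CaPS course minus WT course; limma adjusted p = 1.59e-13), and the peak in the last exon of Cbx2 one of -3.65 ± 0.52 (limma adjusted p = 1.19e-08). The WT pairs ran in opposite directions at both peaks, with log2 ratios of 5.13 and -1.07 at Cbx7 and 4.12 and -0.71 at Cbx2. In WT cells both peaks were high in the day-8 library of experiment 3 and not in that of experiment 5, and in CaPS cells both were high in the day-6 library of experiment 5. Both were also high in WT ESC of experiment 5, where Cbx7 had 979 tags per 10 M against 128 in experiment 3, and Cbx2 had 330 against 42.7. Whether DNA of the CBX7 construct adds tags to these intervals was not tested. The third was a peak in the first intron of Maged1, a gene of the MAGE family, at -3.64 ± 0.78 (limma adjusted p = 0.0162). Maged1 had 16.4 and 14.7 tags per 10 M at CaPS day 8, against 16.8 and 64.0 at CaPS day 6, and 16.5 and 27.4 at WT day 8, against 12.5 and 0 at WT day 6, where a listed 0 allows up to 14.9 in the library of experiment 5. Without the CaPS day-6 library of experiment 5, none of the 3 was called. No fit left out a WT library, so the part of the WT day-8 library of experiment 3 was not tested. The cause was not tested.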

How the results depend on the processing

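Counts of peaks called and the size of the shift depended on the settings below, and the cause was not tested unless the setting itself gives it. At the same sum, 36 peaks were called higher and 36 lower, the median over all peaks was -0.10, and the courses differed at 6 higher and 6 lower. Without scaling, 10 were higher and 0 lower, with a median of 0.57 and 0 lower for the courses. A pseudocount of 10 gave 5 higher and 39 lower, and one of 0.1 gave 0 and 0, with 0 lower for the courses. Only peaks with a mean of at least 20 gave 43 lower, with fewer peaks tested. Only the 4 libraries compared, where 1 residual degree of freedom is left, gave 16 higher and 195 lower. edgeR with TMM gave 27 higher and 6 lower, a median of -0.01 and 5 lower for the courses; edgeR with header totals gave 8 lower; DESeq2 gave 56 higher and 11 lower, a median of 0.04 and 0 lower for the courses. Without the replicate block, which carries the pairing, 1 was called higher and 2 lower.

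Leaving out 1 CaPS library at a time gave 0 to 30 higher, 0 to 414 lower, a median between -0.69 and -0.17, and 0 to 5 higher and 0 to 8 lower for the courses; at the same sum it gave 1 to 20 higher and 4 to 42 lower. All 20 calls were lost at a pseudocount of 0.1 and without the day-6 library of experiment 5. The medians of all 19 lists stayed below 0 with a 2 kb window and with the nearest peak.

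The log2 ratio of named peaks changed sign at the same sum for Hoxd11 0.07, Otx1 0.22, Otx2 0.21, Barhl2 0.14, Pax9 0.17, Tbx18 0.29, Pax3 0.26, Bmi1 0.32, Cdkn2a 0.16, Prrx1 0.34, Gapdh 0.08. Without scaling it did so for Hoxa3 0.74, Hoxb1 0.64, Hoxd1 0.53, Hoxd11 0.85, Hoxb13 0.67, Otx1 1.00, Otx2 0.99, Lmx1b 0.70, Barhl2 0.92, Tbx3 0.71, Nr5a2 0.70, Pax9 0.95, Tbx18 1.07, Foxa2 0.65, Pax7 0.30, Pax3 1.04, Wnt1 0.26, Cyp26b1 0.37, Cyp26a1 0.19, Fgf9 0.15, Dhh 0.26, Gdf6 0.63, Bmi1 1.10, Cbx8 0.22, Cdkn2a 0.94, Cdkn1c 0.73, Pdgfra 0.72, Prrx1 1.11, Gad2 0.64, Slc17a6 0.48, Slc32a1 0.24, Slc1a2 0.40, Slc1a3 0.37, Kcna1 0.30, Grik3 0.45, B2m 0.23, Eef1a1 0.41, Gapdh 0.83. With edgeR and TMM it did so for Hoxa3 0.09, Hoxd11 0.20, Hoxb13 0.01, Otx1 0.35, Otx2 0.35, Lmx1b 0.06, Barhl2 0.27, Tbx3 0.05, Nr5a2 0.04, Pax9 0.30, Tbx18 0.42, Pax3 0.38, Bmi1 0.44, Cdkn2a 0.29, Cdkn1c 0.08, Pdgfra 0.07, Prrx1 0.46, Gapdh 0.20, with edgeR and header totals for Tbx15 -0.02, and with DESeq2 for Hoxa3 0.14, Hoxb1 0.04, Hoxd1 0.04, Hoxd11 0.24, Hoxb13 0.06, Otx1 0.40, Otx2 0.40, Lmx1b 0.10, Barhl2 0.32, Tbx3 0.10, Nr5a2 0.09, Pax9 0.35, Tbx18 0.47, Foxa2 0.03, Pax3 0.43, Gdf6 0.03, Bmi1 0.49, Cdkn2a 0.34, Cdkn1c 0.13, Pdgfra 0.12, Prrx1 0.51, Gad2 0.03, Gapdh 0.25. Leaving out single libraries, the sign changed within these ranges: Zic2 -0.37 to 0.55, Isl1 -0.35 to 0.53, Sox2 -0.38 to 0.68, Sox17 -0.21 to 0.68, Msx1 -0.37 to 0.58, Wnt5a -0.22 to 0.36, Lef1 -0.20 to 0.47, Aldh1a2 -0.13 to 0.47, Cdkn2c -0.32 to 0.48, Tfap2c -0.29 to 0.63, Prdm1 -0.44 to 1.15, Tbx15 -0.42 to 0.45, Hoxa3 -0.76 to 0.00, Hoxd11 -0.67 to 0.13, Otx1 -0.52 to 0.27, Otx2 -0.56 to 0.30, Barhl2 -0.58 to 0.19, Nr5a2 -0.87 to 0.04, Pax9 -0.59 to 0.25, Tbx18 -0.45 to 0.34, Pax3 -0.62 to 0.45, Bmi1 -0.50 to 0.46, Cdkn2a -0.58 to 0.23, Prrx1 -0.46 to 0.46, Gapdh -0.57 to 0.07. Day 6 of experiment 5, at 2.42 M tags, limits what can be seen at weak peaks.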
